A study of Homo sapiens with 21 samples.

Results

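The 8 genes of antigen presentation examined here lie outside the major histocompatibility complex (MHC), and their chromatin was read from 15 lists of enriched chromatin regions from human melanoma cell lines. They are B2M, NLRC5, CIITA, ERAP1, ERAP2, CALR, CANX and PDIA3, 8 of the 19974 protein-coding genes in the RefSeq table for GRCh38 (hg38). A region was assigned to a gene when its midpoint lay in the gene body or within 50 kb of either end. This gave 9 (HOXD13-HA) to 207 (A375-GFP K27ac) distinct regions at the 8 genes per list. The lists held 29176 (HOXD13-HA) to 163102 (SKMEL-147 ATAC) regions in all.

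The lines were 501mel, SKMEL-5, SKMEL-147 and A375, all established melanoma lines grown flat for 72 h in complete medium, with or without 1 µg/ml doxycycline to switch on a hairpin or an expression construct. Neither the doxycycline state of a sample nor its assay (ChIP-seq or CUT&Tag) is given per library in the labels. Open chromatin (ATAC) and histone H3 acetylated at lysine 27 (K27ac, found on promoters and enhancers in use) were mapped in 501mel, SKMEL-5, SKMEL-147 and A375-GFP cells, which carry a GFP construct. The insulator protein CTCF was mapped in 501mel and SKMEL-5, and HA-tagged HOXD13, a homeobox transcription factor, in A375-HOXD13 cells. K27ac was also mapped in A375-shNTC (2 replicates, read here as the non-targeting hairpin), A375-shH2 and A375-shH3, whose targets are not in the labels. The study's design states silencing and overexpression of HOXD13. Every other group is 1 library, so lines and hairpins are compared without a test unless one is named, and nothing says whether the shNTC replicates came from separate cultures. The lists used here hold no ATAC or K27ac of A375-HOXD13 cells, and neither the 5 IgG libraries nor the A375-GFP library made with the HA antibody was analysed here.

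MHC class I molecules show peptides from inside the cell to CD8 T cells, and class II molecules show peptides to CD4 T cells. Class I heavy chains fold in the endoplasmic reticulum with the aid of chaperones, pair with beta-2-microglobulin and receive peptides that aminopeptidases have trimmed. Transcription of both classes is switched on by large activator proteins that bind factors seated on the promoters, and tumour cells that lose these steps are less visible to T cells. Of the 8 genes, NLRC5 and CIITA encode the activators of class I and class II transcription. B2M encodes the class I light chain, ERAP1 and ERAP2 the trimming peptidases, and CALR, CANX and PDIA3 the chaperones calreticulin and calnexin and the disulfide isomerase ERp57.

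The RefSeq table held start windows for 5 of the 8 genes (B2M, CALR, ERAP1, ERAP2 and CANX). NLRC5, CIITA and PDIA3 are named only. The 250 bases before the start are shown for B2M, ERAP1 and CALR. The ATAC lists of all 4 lines had a region over each of them while their acetylation differed between lists. That also held for CANX, whose windows are described below but not shown. The sequences are written 5′ to 3′ on the gene's strand, from RefSeq on GRCh38. Capitals mark matches on either strand to GAAA and GAAA with any 2 bases between (the core of the interferon-stimulated response element, ISRE), GGGAAA and TCCC with any 1 base between (an NF-kB site), TGACG (the CRE half-site), CCAAT (the box bound by NF-Y) and CCAAT followed by CCACG with any 9 bases between (the endoplasmic reticulum stress element, ERSE, which contains a CCAAT). The other motifs searched, left in lower case, were CAATAAA and TCGTAAA (letters of HOX13-type sites) and TATAAA (the TATA box).
B2M, chr15:44711267-44711516, plus strand: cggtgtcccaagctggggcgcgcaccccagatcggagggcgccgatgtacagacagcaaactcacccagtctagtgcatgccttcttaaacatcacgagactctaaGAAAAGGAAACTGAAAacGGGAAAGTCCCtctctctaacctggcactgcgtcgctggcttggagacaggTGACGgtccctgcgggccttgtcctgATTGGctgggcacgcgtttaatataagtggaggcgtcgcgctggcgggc
ERAP1, chr5:96807946-96808195, minus strand: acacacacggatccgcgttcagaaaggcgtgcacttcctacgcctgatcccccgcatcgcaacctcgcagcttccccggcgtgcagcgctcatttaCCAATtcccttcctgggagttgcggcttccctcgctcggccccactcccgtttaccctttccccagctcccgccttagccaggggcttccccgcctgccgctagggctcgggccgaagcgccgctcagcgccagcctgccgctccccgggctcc
CALR, chr19:12938359-12938608, plus strand: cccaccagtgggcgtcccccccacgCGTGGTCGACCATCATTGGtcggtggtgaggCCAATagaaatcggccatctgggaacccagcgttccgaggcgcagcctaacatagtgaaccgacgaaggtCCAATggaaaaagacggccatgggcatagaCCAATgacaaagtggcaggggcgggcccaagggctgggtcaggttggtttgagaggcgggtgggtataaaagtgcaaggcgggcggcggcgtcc

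The B2M window held 2 overlapping ISRE matches that run from base 144 to base 129 before the start, an NF-kB match from base 126 to 116, a CRE half-site from base 75 to 71 and a CCAAT box from base 49 to 45. CALR held 4 CCAAT boxes, the one farthest from the start inside an ERSE match on the opposite strand. CALR also held a TATA box, 30 to 25 bases before the start. CANX has 4 listed starts whose windows overlap in part, and 2 of them held the same ERSE, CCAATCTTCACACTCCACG, 151 to 133 bases before the one and 189 to 171 before the other. A further CANX window held only the CCAAT box of this ERSE, 9 to 5 bases before its start, and a CRE half-site. ERAP1 has 2 listed starts. The window shown held a CCAAT box and no other match, and the other held no match. Of the 2 ERAP2 windows 1 held the ISRE match GAAAGTGAAA, 30 to 21 bases before the start. Among the 22156 windows of all genes, 2.71% held an ISRE match, 0.226% the NF-kB letters, 24.1% the CRE half-site, 32.7% a CCAAT box, 0.0993% an ERSE and 9.0% a TATA box. CAATAAA was in 2.69% and TCGTAAA in 0.46% of all windows and in none of the members' windows. These matches describe letters only.

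At the starts, open chromatin was shared and acetylation was not. ATAC regions covered a start window of all 5 genes that have one in 501mel (64.2% of all genes with a window), SKMEL-147 (70.2%) and A375-GFP (71.9%), and 4 of 5 in SKMEL-5 (56.2%). The missing one was ERAP2, where 2 SKMEL-5 ATAC regions lay within 1 kb instead. ATAC regions also lay within 1 kb of the lower-numbered gene end, the 5′ end, of NLRC5 and PDIA3 in all 4 lines. No list of any assay had a region within 1 kb of that end of CIITA, which uses several alternative promoters.

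K27ac regions covered the start windows of 5 of 5 genes in A375-GFP (36.3% of all genes), SKMEL-5 (40.8%), shNTC replicate 1 (51.8%), shNTC replicate 2 (49.2%) and shH3 (43.8%), 4 of 5 in shH2 (29.2%), and 1 of 5, ERAP2, in 501mel (7.85%) and in SKMEL-147 (7.21%). The last lists thus rarely had a region over any gene's start. Within 1 kb they reached 3 of 5 (501mel, 24.3% of all genes) and 2 of 5 (SKMEL-147, 22.4%). Within 1 kb shH2 reached 5 of 5 (43.3%). Depth and list quality are not known from the files, and their part in these low counts was not tested. Each gene is given with the authors' fold enrichment at the summit and the region's place by −log10 q in its own list, which describe a region within a list and show no change between lists.

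B2M was open in every line and listed as acetylated in only some. The start carried an ATAC region with a fold of 18.3 in 501mel, 12.3 in SKMEL-5, 19.9 in SKMEL-147 and 12.5 in A375-GFP, which placed it in the top 3.05% (SKMEL-147) to 11.3% (A375-GFP) of the lists. The K27ac region at the start had a fold of 10.9 in SKMEL-5, 6.64 in A375-GFP, 13.6 and 11.3 in shNTC replicates 1 and 2, 8.93 in shH3 and 4.06 in shH2. The start window ends at 44711566, and the shH3 region, which began at 44711563, only touched it. The shH2 region began at 44711656, so it missed the start window and lay within 1 kb of it. It stood in the top 77.8% of its list, against 9.84% and 13.4% in shNTC and 22.0% in shH3. The 501mel K27ac list had no region in the gene or within 50 kb of it, the only member and K27ac list for which this was so, while 67.0% of all genes had at least 1 region in that list. The other K27ac lists had a region at all 8 genes, against 72.0% of all genes in SKMEL-147, 79.9% in shH2, 81.2% in SKMEL-5, 84.5% in A375-GFP, 85.2% in shH3, and 88.9% and 88.7% in shNTC replicates 1 and 2. SKMEL-147 had 3 K27ac regions, none within 1 kb of the start.

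Of the 3 joined ATAC regions found in all 4 lines at B2M, one lay on the start, one far before it in SPG11 (44662932 to 44664086) and one between genes, 17.0 kb past the start. The last ran from 44728493 to 44729473 of chromosome 15 and stood in the top 0.433% of the SKMEL-5 list with a fold of 18.2. CTCF was listed on it in both lines, with folds of 13.3 in 501mel and 14.2 in SKMEL-5. The strongest K27ac region of the B2M window in A375-GFP ran from 44726015 to 44728700, onto this element. In SKMEL-5 it ran from 44727867 to 44729604 and covered the element. In SKMEL-147 it ran from 44726020 to 44728248 and ended before the element.

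**Figure D1:**
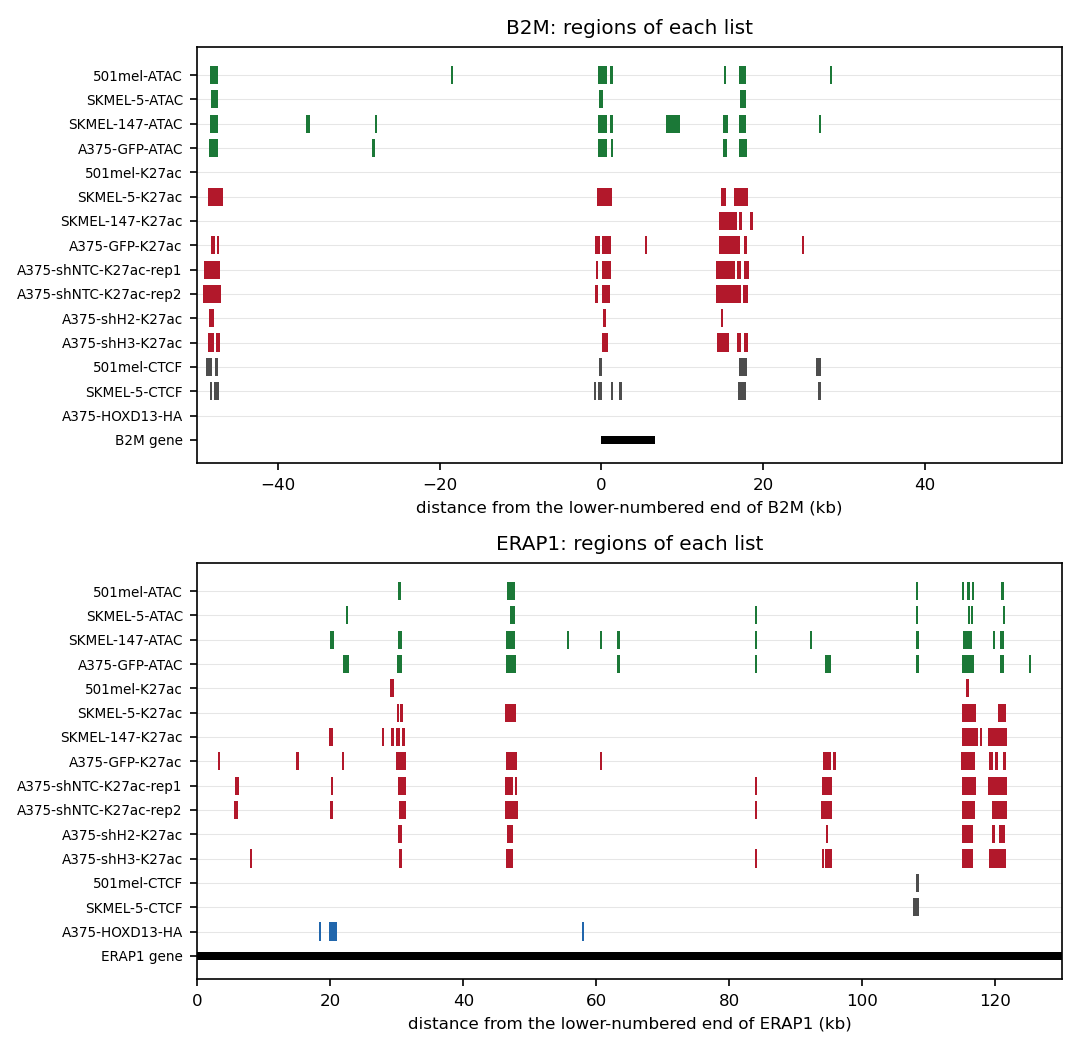
Regions of the 15 lists (1 bar per region, green ATAC, red K27ac, grey CTCF, blue HOXD13-HA) around B2M and along 130 kb of ERAP1. Distance is in kb from the lower-numbered gene end, which is the 3′ end of ERAP1 (minus strand), and the gene is a black bar. At B2M the ATAC lists share the start, an element 17.0 kb on and one in SPG11 near the left edge, and the 501mel K27ac track is empty; in ERAP1 the widest HOXD13-HA region has no A375-GFP region over it.

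ERAP1 had the most strongly acetylated start of the 8 genes in the shNTC lists. Its K27ac region had a fold of 33.7 in shNTC replicate 1 and 30.4 in replicate 2, 22.8 in shH3, 11.5 in shH2, 15.4 in A375-GFP and 13.5 in SKMEL-5. It stood in the top 0.897% and 1.07% of the shNTC lists, 1.93% of shH3 and 7.14% of shH2. Neither 501mel nor SKMEL-147 had a K27ac region within 1 kb of it, although both were open there, with ATAC folds of 15.2 and 19.5. In RefSeq ERAP1 runs from 96760813 to 96935854 of chromosome 5 and covers ERAP2 (96875984 to 96919716) whole. The ERAP2 window lies inside that of ERAP1, so every region counted at ERAP2 is also counted at ERAP1.

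At the ERAP2 start the ATAC regions stood low in their lists, and every K27ac list had a region, though a weak one in some. Its start was the only one under a K27ac region in all 8 K27ac lists. Folds were 3.71 in 501mel, 10.0 in SKMEL-5, 6.81 in SKMEL-147, 14.9 in A375-GFP, 10.8 (replicate 1) and 9.93 (replicate 2) in shNTC, 10.0 in shH3 and 4.58 in shH2. The strongest ATAC region within 1 kb stood only in the top 52.1% (501mel) to 80.1% (SKMEL-147) of its list, the lowest places of any member with a RefSeq start window. The K27ac region stood in the top 2.98% (A375-GFP) to 64.0% (501mel), with shH2 at 51.7%. In 501mel its place was thus lower than that of the ATAC region.

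The chaperone genes were open in all lines. CANX had the highest ATAC place of the 8 starts in 3 of the 4 lines, top 0.166% in A375-GFP (fold 13.0), 0.447% in SKMEL-147 (19.7), 3.70% in 501mel (14.3). In SKMEL-5 it stood in the top 9.27% (12.0), behind B2M at 6.31% and ERAP1 at 9.13%. Its K27ac fold near the start was 13.3 and 17.3 in shNTC replicates 1 and 2, 11.8 in shH2, 25.4 in shH3, 6.98 in A375-GFP, 18.3 in SKMEL-5, 4.69 in SKMEL-147 and 2.89 in 501mel. The hairpin values lie on either side of the shNTC values. CALR had K27ac folds of 12.9 and 13.0 in shNTC, 5.11 in shH2, 12.3 in shH3, 12.5 in A375-GFP, 4.37 in SKMEL-5 and 4.33 in 501mel, and no region within 1 kb in SKMEL-147. In both shNTC lists the CALR start lay in a long K27ac region that ran past the gene start, to 12942956 in replicate 1 and beyond the upper gene end to 12945520 in replicate 2. The strongest shH2 and shH3 regions there ended at 12939541 and 12939411. PDIA3 carried K27ac at its 5′ end in shNTC (folds 12.7 and 11.9), shH2 (9.68), shH3 (15.7), SKMEL-5 (11.4) and SKMEL-147 (3.97). A375-GFP, the same line with another control construct, had none there, nor had 501mel, though A375-GFP was open with a fold of 14.1.

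**Figure D2:**
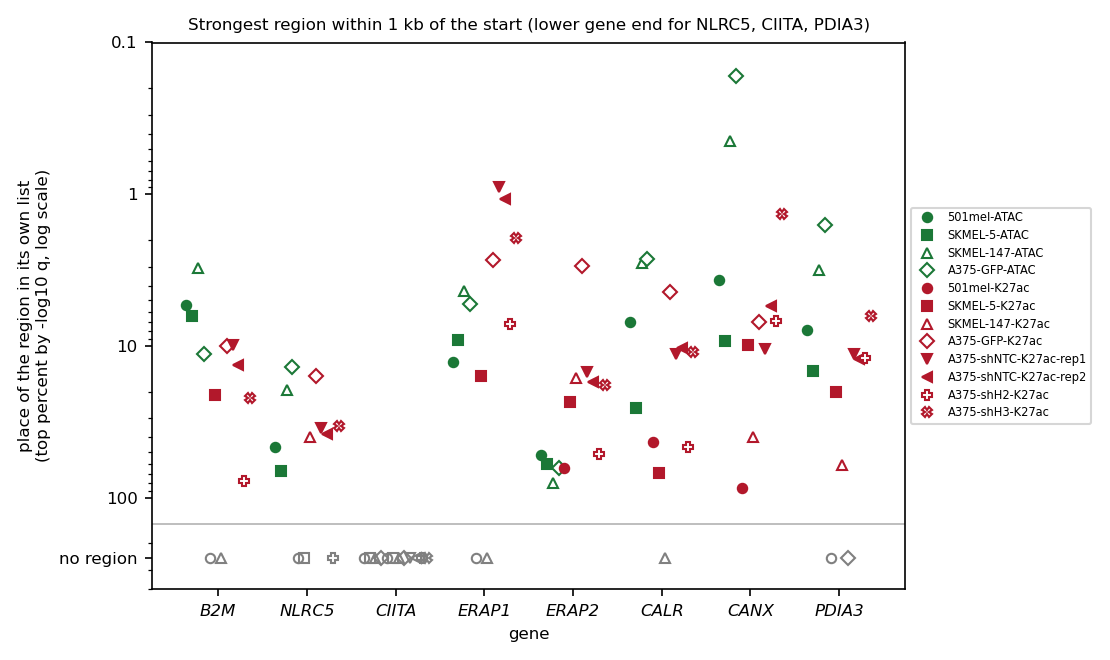
Place of the strongest region near the start of each gene in its own list (top percent by −log10 q, log scale, strongest on top), 1 point per library, green for ATAC and red for K27ac; grey symbols at the bottom mark lists with no region within 1 kb. CANX has the highest ATAC place in 3 of the 4 lines (0.166% in A375-GFP), ERAP1 the highest K27ac place (0.897% in shNTC replicate 1), and no list has a region at the lower end of CIITA.

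NLRC5 and CIITA, the transcription activators, each had a strong acetylated element inside the gene, and both elements were under HOXD13-HA. In NLRC5 the K27ac region ran from 56998796 to 57001510 of chromosome 16 in shNTC replicate 1, 9.24 to 12.0 kb into the gene. Its fold was 32.3 and 30.7 in shNTC replicates 1 and 2, 21.6 in shH2, 22.8 in shH3, 12.6 in A375-GFP and 17.2 in SKMEL-147. It stood in the top 1.01% and 1.05% of the shNTC lists, 0.749% of shH2, 1.60% of shH3, 3.14% of A375-GFP and 1.15% of SKMEL-147, so it ranked near the top in each list that held it. ATAC regions covered it in A375-GFP (fold 13.1) and SKMEL-147 (31.7). The ATAC and K27ac lists of 501mel and SKMEL-5 had no region there. The NLRC5 start, by contrast, had modest K27ac folds of 6.24 and 5.74 in shNTC, 7.05 in shH3, 6.64 in A375-GFP, 4.69 in SKMEL-147 and none in shH2, 501mel or SKMEL-5.

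The CIITA element lay 4.03 to 6.86 kb into the gene, from 10870236 to 10873065 in shNTC replicate 1. Its K27ac fold was 30.0 and 27.2 in shNTC replicates 1 and 2, 11.4 in shH2, 17.5 in shH3, 18.8 in A375-GFP and 8.46 in SKMEL-5. SKMEL-147 had 2 weaker regions over the same stretch, both with a fold of 5.77, and 501mel had none. All 4 lines were open there, with ATAC folds of 5.85 in 501mel, 7.94 in SKMEL-5, 11.4 in A375-GFP and 19.9 in SKMEL-147. The SKMEL-147 region stood in the top 0.554% of the list. Farther into the gene, ATAC regions from 10876785 to 10877941 and from 10878346 to 10879776 were listed in SKMEL-147 and A375-GFP alone, the pattern of 6 of the 26 joined ATAC regions at CIITA (13.1% of all joined regions). The 501mel K27ac list had 1 region at CIITA, with a fold of 2.05. The A375-GFP K27ac list had 67, and 1.15% of all genes had as many or more in that list. Most were weak, with a median −log10 q of 4.89, equal to that of the whole list.

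**Figure D3:**
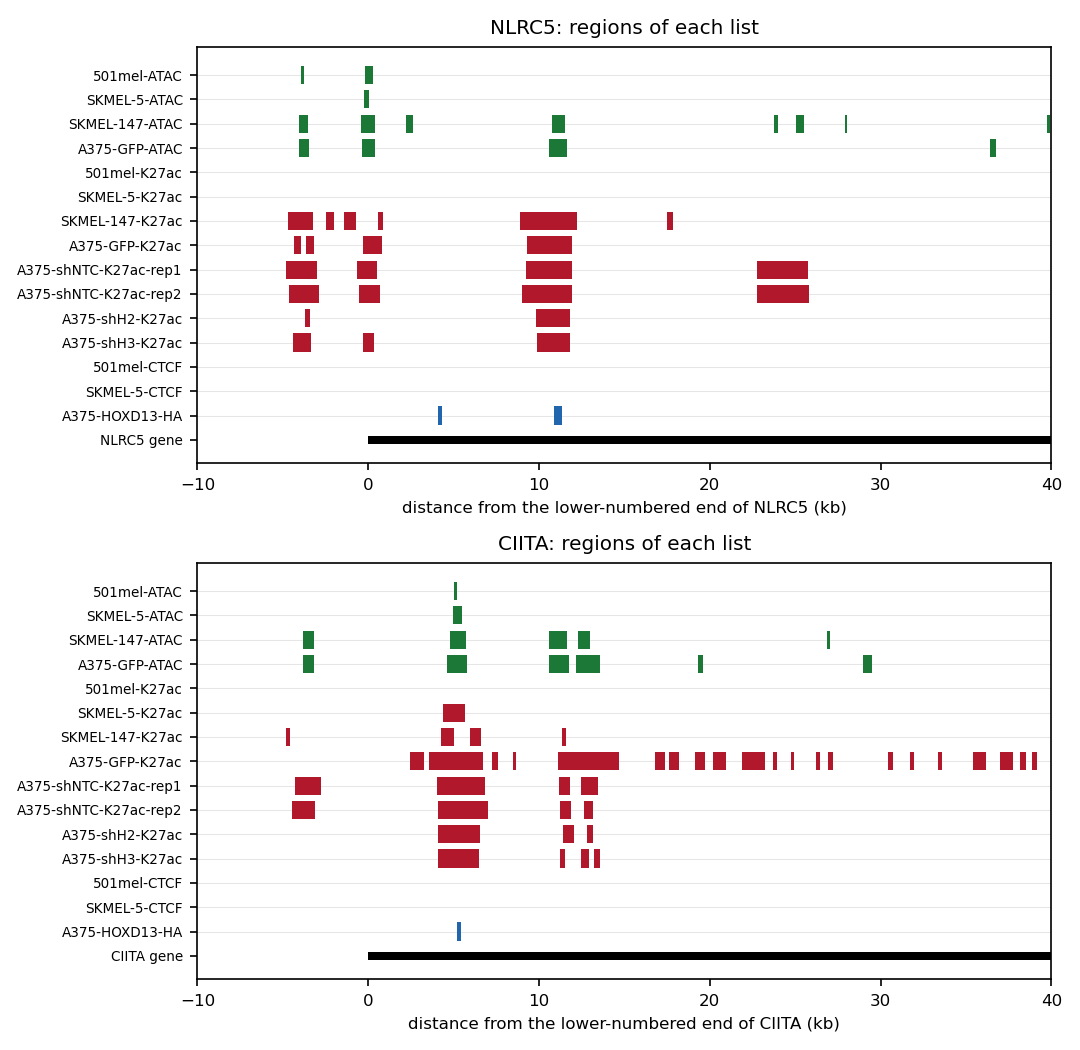
Regions of the 15 lists from 10 kb before to 40 kb after the lower-numbered end of NLRC5 and of CIITA (green ATAC, red K27ac, grey CTCF, blue HOXD13-HA, black the gene). The K27ac region from 9.24 kb into NLRC5 is in the lists of A375 and SKMEL-147 alone, the one from 4.03 kb into CIITA is in every line but 501mel, and a HOXD13-HA region lies on each.

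HOXD13-HA was listed at 4 of the 8 genes, against 60.2% of all genes: 3 regions at NLRC5, 3 at ERAP1, 2 at CANX and 1 at CIITA. B2M, ERAP2, CALR and PDIA3 had none, and their nearest regions lay 78313, 57206, 87522 and 94754 bp away. No HOXD13-HA region covered a start window of a member, as for all but 1.68% of genes with a window, and none lay within 1 kb of one (4.44% of all). Of the 9 regions 3 overlapped an A375-GFP ATAC region (34.1% of all HOXD13-HA regions), 4 a K27ac region of A375-GFP (22.2%) and 5 neither (58.5%). Overlap means at least 1 shared bp.

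The strongest HOXD13-HA region at the members lay in ERAP1, from 96780574 to 96781877. Its fold was 11.7, and it stood at rank 450 of 29176, the top 1.54%. It lay 26720 bp from the nearest listed start, and neither A375-GFP list had a region over it. Both shNTC replicates had a weak K27ac region there (folds 3.28 and 3.14), which neither hairpin list held, and SKMEL-147 had ATAC (7.59) and K27ac (5.36). The NLRC5 element had a HOXD13-HA region from 57000448 to 57000918 with a fold of 4.57 at rank 2818, and the CIITA element one from 10871380 to 10871654 with a fold of 3.30 at rank 6503. Both hairpin lists kept the K27ac region over each of these elements.

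In CANX the HOXD13-HA region from 179716327 to 179716798 had a fold of 5.93 at rank 7703. Its K27ac was listed in both shNTC replicates (folds 4.45 and 5.74) and A375-GFP (3.70), and in neither hairpin. The other CANX region, from 179733615 to 179733883, lay beyond the gene in MAML1, with K27ac in shNTC (11.4 and 12.7) and shH3 (11.6) and none in shH2. The remaining 4 regions, 2 at NLRC5 and 2 at ERAP1, had folds of 3.77 to 5.04 and overlapped no region of any other list.

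K27ac after the hairpins was compared as presence in a list. Of the 78 regions at the members that both shNTC replicates shared, 30 were in neither hairpin list (38.5%, 95% Wilson interval 28.4 to 49.6%), and the share over all 65337 such regions was 37.1%. The members' share is close to that background. By gene, the share was 1 of 5 at B2M, 3 of 10 at NLRC5, 5 of 12 at CIITA, 6 of 17 at ERAP1, 0 of 8 at ERAP2, 5 of 10 at CALR, 6 of 16 at CANX and 4 of 8 at PDIA3. The 8 at ERAP2 are among the 17 at ERAP1. None of the 38 regions of both hairpin lists at the members was missing from both shNTC lists (1.85% of all). The hairpin lists were shorter, with 43634 regions in shH2 and 51838 in shH3 against 85977 and 80242 in shNTC. When all 4 were cut to the 43634 regions of highest −log10 q, 7 of 39 members' regions (17.9%) were in shNTC only, against 16.4% of all, and 3 of 35 (8.57%) were in the hairpins only, against 6.5% of all.

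The regions absent from both hairpin lists were mostly the weak ones, as over all regions, and none lay on a member's start window. Counting either gene end where no window is listed, 0 of 8 members lost a shared start region, against 12.4% of all genes with one. CIITA was among the 8 only through its upper end. By the lower end 7 members had such a region in each shNTC list. The median −log10 q of the 30 absent regions was 4.30 and the highest was 14.7, against a median of 16.2 for the 48 that stayed. Over all regions the medians were 5.03 for absent and 17.1 for kept ones. Of the 30, 10 overlapped an A375-GFP ATAC region (42.5% of all absent regions), against 45 of the 48 (91.7% of all kept regions). HOXD13-HA overlapped 2 of the 30 (5.78% of all absent regions) and 3 of the 48 (14.2% of all kept). The A375-GFP K27ac list held 17 of the 30 (52.9% of all absent) and 40 of the 48 (81.7% of all kept).

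The strongest absent region within a member's own gene was in NLRC5, from 57012340 to 57015369, with folds of 5.52 and 6.72 in shNTC. It was also absent with lists of equal length, and it was in neither the ATAC nor the K27ac list of A375-GFP. The 3 stronger ones lay outside the members. They were at the start windows of CLEC16A (10944603 to 10945237 of chromosome 16, folds 6.24 and 7.84) and SYCE2 (12919462 to 12921995 of chromosome 19, folds 6.52 and 7.14) and inside CLEC16A away from its start (10957237 to 10958826, folds 6.79 and 6.03). All 3 were absent with lists of equal length too. The absent B2M region, from 44710772 to 44711140, ended just before the start window, with folds of 4.17 and 5.33.

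Region numbers per gene were compared between the shNTC lists and the shorter hairpin lists. NLRC5 had 15 (replicate 1) and 11 (replicate 2) regions in shNTC, against 4 in shH2 and 7 in shH3. CIITA had 21 and 14 in shNTC, 6 in shH2 and 10 in shH3. ERAP1 had 21 and 18, then 9 and 15, CANX 26 and 20, then 7 and 14, and PDIA3 15 and 10, then 4 and 6, in the same order. In these 5 of 8 genes both hairpin numbers lay below both shNTC numbers, as in 66.5% of all genes. B2M (6 and 5, then 3 and 6), ERAP2 (8 and 9, then 7 and 11) and CALR (15 and 13, then 8 and 16) overlapped. At ERAP2 and CALR shH3 had more regions than either shNTC replicate. The exact two-sided permutation test of 2 libraries against 2 gave p = 0.333 for the 5 genes, the smallest p this design allows, and 0.492 after Benjamini-Hochberg adjustment over 18099 genes. No gene of the genome could pass 0.05, and at an unadjusted p under 0.05 the count was 0 as well.

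With lists of equal length the difference in number did not remain. No member was lower in both hairpin lists (18.3% of all genes), and 2 were higher in both (13.0%). ERAP2 had 6 and 5 regions in shNTC, 7 in shH2 and 10 in shH3, and CALR had 6 and 5, then 8 and 13. The covered length was lower in both hairpin lists at all 8 genes in the uncut lists, as at 91.9% of all genes. At CALR it was 29927 and 30742 bp in shNTC, 6525 bp in shH2 and 10899 bp in shH3.

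**Figure D4:**
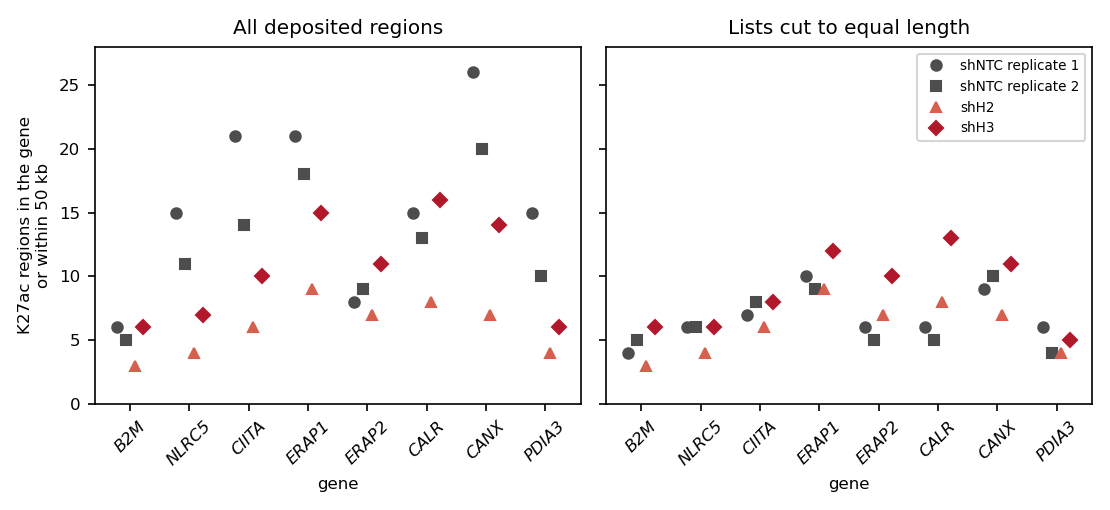
Number of K27ac regions at each gene in shNTC replicates 1 and 2, shH2 and shH3 (1 point per library), from all deposited regions (left) and from lists cut to the same 43634 regions (right). On the left 5 genes have both hairpin points below both shNTC points; on the right none has, and the ERAP2 and CALR hairpin points are the higher ones.

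Across the lines, 138 joined ATAC regions lay at the members, and 34 of them (24.6%) were in all 4 lines, against 14.7% of all joined ATAC regions. That background takes in regions far from any gene, while the members' regions lie in gene windows that also hold starts of other genes. The share per gene ran from 5 of 31 at ERAP1 to 7 of 13 at CALR, whose window holds 6 other coding genes. Regions of SKMEL-147 and A375-GFP alone were 14 of 138, against 13.1% of all, and of 501mel and SKMEL-5 alone 1 of 138, against 1.46%. For K27ac, 8 of 227 joined regions (3.52%) were in all 4 lines, against 2.89% of all, and 150 (66.1%) were in A375-GFP alone, whose K27ac list was the longest, against 44.0% of all. B2M, NLRC5 and CIITA had no K27ac region in all 4 lines, and the other genes had 2 each. Those of ERAP2 are the same regions as those of ERAP1. Members and all genes were also compared by the median number of regions per 100 kb of window. The members' median was above that of all genes in every list but HOXD13-HA, where it was 0.283 against 0.731. For K27ac the medians were 12.6 against 6.68 in A375-GFP, 9.78 against 4.41 in shNTC replicate 1 and 7.21 against 4.07 in shNTC replicate 2. They were 5.64 against 2.58 in shH3, 3.33 against 1.93 in shH2 and 3.84 against 1.89 in SKMEL-5. SKMEL-147 had 3.69 against 1.59 and 501mel 2.08 against 1.55. ATAC medians were 6.41 against 5.71 in 501mel, 4.34 against 3.12 in SKMEL-5, 8.58 against 7.93 in SKMEL-147 and 6.75 against 5.95 in A375-GFP. CTCF medians were 2.67 against 2.34 in 501mel and 3.93 against 2.93 in SKMEL-5.

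**Figure D5:**
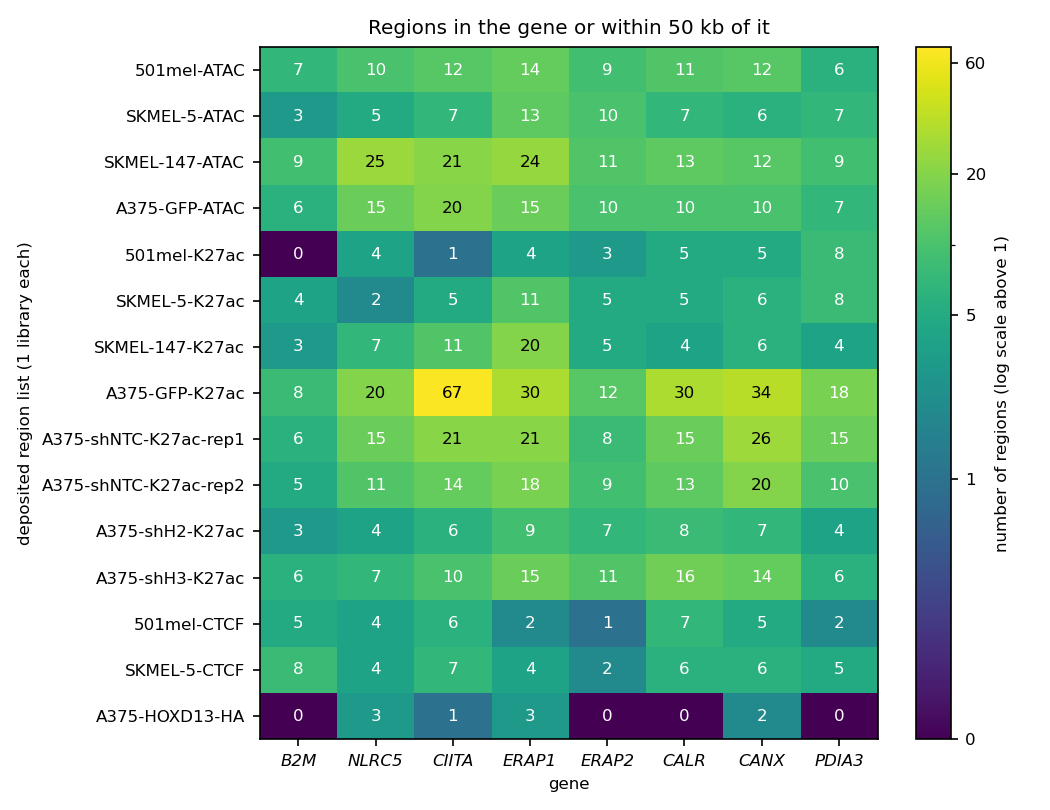
Number of regions of each of the 15 lists in each gene or within 50 kb of it (1 library per line of the grid, colour on a log scale above 1). CIITA reaches 67 in the A375-GFP K27ac list, B2M is at 0 in 501mel K27ac, and HOXD13-HA is at 0 at B2M, ERAP2, CALR and PDIA3.

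CTCF sites were largely the same in both lines that were mapped. Of 31 regions at the members in 501mel, 27 overlapped a SKMEL-5 region (87.1%, against 76.9% of all), and of 40 in SKMEL-5, 27 overlapped a 501mel region (67.5%, against 58.3%). By gene, 501mel and SKMEL-5 had 5 and 8 regions at B2M, 4 and 4 at NLRC5, 6 and 7 at CIITA, 2 and 4 at ERAP1, 1 and 2 at ERAP2, 7 and 6 at CALR, 5 and 6 at CANX and 2 and 5 at PDIA3. CTCF covered the start windows of 3 of 5 genes in 501mel (28.3% of all genes with a window) and 2 of 5 in SKMEL-5 (33.6%). Shared regions were those of B2M (folds 3.82 and 8.89), whose region also covers a start window of PATL2, and CANX (8.34 and 8.07), and the CALR window had one in 501mel alone. The strongest at B2M lay in SPG11, from 44663646 to 44664069, with folds of 35.9 in 501mel and 42.2 in SKMEL-5 and ATAC in all 4 lines. NLRC5 was flanked by a strong shared site in CETP (24.2 and 52.3) and one just past the upper gene end (12.5 and 12.3).

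Other genes of the pathway were read from fixed lists. HOXD13-HA lay within 50 kb of 9 of 14 regulators of MHC transcription and interferon signalling, 4 of 8 processing genes outside the MHC and 1 of 14 genes inside it, against 60.2% of all genes. It covered no start window of any of these genes. A start K27ac region shared by the shNTC replicates was in neither hairpin list for NFYB and IRF1, 2 of the 12 regulators with such a region, and for CTSS and IFI30, 2 of 8 processing genes, against 12.4% of all genes with one. Another region within 1 kb of the start remained in both hairpin lists for NFYB and in shH3 for IRF1 and IFI30. With lists of equal length the counts were 0 of 10 and 1 of 7 (CTSS), against 6.96% of all. The shNTC and hairpin lists held regions near 0 or 1 of the 14 MHC genes, and since these lists also hold regions on alternative copies of genome sequences no comparison was made there.

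As a check of the lines, 7 of 7 melanocytic markers (SOX10, MITF, PMEL, MLANA, TYR, DCT and S100B) had a K27ac region within 1 kb of the start in 501mel and SKMEL-5, 4 of 7 in A375-GFP and each of the shNTC and hairpin lists, and 1 of 7 in SKMEL-147. The share of all genes was 23% in 501mel, 46.9% in SKMEL-5, 53.3% in A375-GFP, 58.6% and 57.2% in shNTC replicates 1 and 2, 40.9% in shH2, 52.0% in shH3 and 21.0% in SKMEL-147, so the counts in A375 and SKMEL-147 are near the background. An ATAC region was there for 7, 6, 4 and 5 of them in 501mel, SKMEL-5, SKMEL-147 and A375-GFP, against 67.0%, 59.7%, 73.8% and 74.7% of all genes. Of 15 markers of keratinocytes, T cells, endothelium, dendritic and B cells and hepatocytes, 0 had such a K27ac region in 501mel, SKMEL-5 and SKMEL-147 and 1 to 3 in the A375 lists, against the same shares of all genes. HOXD13 itself had 1 region within 10 kb in each shNTC list and 2 in each hairpin list, which checks nothing, since hairpins act on the transcript.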

How the data were processed

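Region lists of 15 libraries were used, 1 list per library. The tools named, per the submitters' processing notes, are MACS2, Bowtie2, deepTools, SAMtools and Trim Galore, with hg38 as the build. Versions, settings and control libraries are not given in the sources used here. Each deposited list gives a score, which is 10 times the −log10 q without its decimals in at least 99.92% of each list's regions, the authors' fold (a ratio, summit against local background), and the −log10 p and −log10 q of the authors' caller. The lowest −log10 q of a list lay between 1.30 and 1.34. The deposited lists hold no counts, so depth is unknown and the number of regions limits what a list can show. The labels' extraction text describes RNA libraries and was not used.

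Autosomal and X-linked regions were retained. ATAC of A375-GFP and K27ac of shNTC, shH2 and shH3 also held 374 to 2747 regions on alternative copies of genome sequences, and whether the members have such copies was not examined. Genes, start windows (250 bases before to 50 after the start) and sequences came from RefSeq on GRCh38. That table gives no exons, so exons, introns and UTRs were not told apart. Where a gene has no start window, a region within 1 kb of a gene end counted as a promoter region in the planned count. The text uses the lower-numbered end instead, chosen after seeing the data.

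Regions shared at least 1 bp to count as overlapping. Intervals are 95% Wilson intervals and cover counting error only. The 2 shNTC replicates were set against the 2 hairpin libraries by an exact permutation test (Python 3.11.15, scipy 1.17.1, pandas 2.3.3). Overlap, counting and joining steps were tested on simulated data. The cutting of lists to equal length was not. Alternatives were a −log10 q of at least 10, windows of 10 and 100 kb, any overlap in place of the midpoint, 50% overlap, lists of equal length, each hairpin alone and each shNTC replicate left out. All 8 genes are named, with all HOXD13-HA regions, the strongest regions, and the pathway genes with a region absent from both hairpin lists at the start. The members and lists were chosen with earlier results of these data known.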

Additional observations from a re-analysis of the deposited data

How the results depend on the processing

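No paired analysis was possible because shH2 and shH3 are 1 library each and carry no replicate number. Of 66 recomputed values 45 stayed close to the reported one (counts within 1.5 times, shares within the 95% interval) and 21 moved. The median number of members' regions per list was 55 and became 27 at a −log10 q of at least 10, 30 with a 10 kb window and 83 with 100 kb. Members with a K27ac promoter region in every list were 1, against 0 at −log10 q of at least 10, 2 within 1 kb and 5 without the 501mel and SKMEL-147 lists, an alternative chosen after seeing the data. HOXD13-HA regions numbered 9, against 3 at −log10 q of at least 10 and 18 at 100 kb. Those in ATAC or K27ac of A375-GFP were 4, against 2 and 9. Members with any HOXD13-HA region were 4, against 8 at 100 kb (76.1% of all genes). The share of K27ac regions absent from the hairpin lists was 38.5%, against 26.7% at −log10 q of at least 10 (32.2% of all), 17.9% with equal length and 59.0% for shH2 alone (52.2% of all). It was 46.2% without shNTC replicate 1 (45.5% of all) and 55.5% without replicate 2 (48.4% of all), where regions of 1 replicate count. Members lower in both hairpin lists were 5, against 2 at −log10 q of at least 10 (47.7% of all genes), 0 with equal length, 2 per 10000 regions (33.7%) and 8 by covered length. Per 10000 regions 2 were higher in both (23.2%). ATAC regions in all 4 lines were 24.6%, against 36% with equal length (18.5% of all), and for K27ac 3.52%, against 0.0% (0 of 48) at −log10 q of at least 10 (2.42% of all). The length of the lists, 1 library per group and unknown depth limit every comparison here.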

Other observations

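The strongest K27ac region of a window was not always that of the member itself. NLRC5, CIITA and ERAP1 had theirs inside the gene in both shNTC lists, shH2 and shH3. The strongest B2M region lay in SPG11, with folds of 17.0 and 11.4 in shNTC, 7.39 in shH2 and 13.8 in shH3. The ERAP2 one lay at the upper end of ERAP1, with 18.3 and 20.1 in shNTC, 5.89 in shH2 and 9.58 in shH3. It covered a start window of the neighbour LNPEP in both shNTC lists and shH3, and no start window in shH2. For CANX and PDIA3 the gene that held it differed between lists. It was MAML1 (20.3 and 18.9) and SERF2 (16.5 and 17.1) in shNTC, and CANX (11.8 and 25.4) and PDIA3 (9.68 and 15.7) in shH2 and shH3.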
